A study of Mus musculus with 5 samples.

Results

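A set of 9 genes of transforming growth factor beta (TGF-beta) and bone morphogenetic protein (BMP) signalling were followed through adipogenesis in 3T3-L1 cells, a mouse embryo fibroblast line that turns into fat cells when induced. They are the ligands Tgfb1, Tgfb2, Tgfb3 and Bmp4 and the antagonists or antagonist-like genes Grem1, Fst, Fstl1, Fstl3 and Bambi. They were listed by name, with earlier results of these data known, and make up 9 of the 32285 genes in the count matrices. Counts of members set beside shares of all genes therefore describe these genes and test nothing. Single-cell RNA libraries were compared from 5 cultures of 1 cell line: confluent cells before induction (day 0, no adipogenic cocktail), and cells taken on days 3 and 6 after induction, either untreated or with the P-G3 polymer. P-G3, a polyamidoamine polymer carrying many positive charges, was in the medium at 10 µg/mL from the start of induction. All induced cultures received dexamethasone, insulin, isobutylmethylxanthine and fetal bovine serum, followed by insulin; cells before induction were kept in calf serum. Each group is 1 library, so differences between groups rest on single cultures, could not be checked against repeats and were not tested. Every interval is a 95% interval that covers counting error only, since molecules were counted by unique molecular identifiers (UMIs) but cultures were not repeated.

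TGF-beta ligands are secreted in a latent complex, are freed outside the cell, and signal through serine/threonine kinase receptors to the SMAD2 and SMAD3 proteins. BMPs signal through related receptors to SMAD1, SMAD5 and SMAD9, whose classic targets are the inhibitor of differentiation (Id) genes. Secreted antagonists bind the ligands before they reach a receptor. In the fat lineage TGF-beta is known as an inhibitor of adipocyte differentiation and a driver of matrix and contractile genes, and BMP4 as a signal that commits precursor cells to become adipocytes.

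The kept cells numbered 2468 to 3893 per library and held 88432894 to 179221992 UMIs, so that 3 counts equal 0.0167 to 0.0339 CPM (UMIs of a gene per 1000000 UMIs of its library). The filters kept 97.4% to 98.9% of barcodes on days 0 and 3. On day 6 they kept only 46.7% of 5282 untreated and 62.0% of 5719 P-G3 barcodes. Of the kept day 6 cells, 37.6% untreated and 47.0% with P-G3 had under 10000 UMIs. Those left 1541 and 1881 cells for the rankings, ranges and thinned shares below, so day 6 results rest on selected barcodes. The median depth per cell was 47504 UMIs on day 0, between 34214 and 40306 in the day 3 libraries and in untreated day 6 cells, and 16658 in P-G3 day 6 cells. Any pair of libraries shared at most 7 cell barcodes (0.19% of the smaller library). In sum, the markers matched the label of the cells. The 9 preadipocyte markers summed to 4304 CPM on day 0, of which Dlk1 gave 2125 CPM, and to 803 to 2077 CPM later. Not each followed the sum, since Col3a1 went from 559 to 670 CPM and Lox from 166 to 201 CPM from day 0 to day 3 untreated. The 8 adipocyte markers summed to 159 CPM on day 0, of which Lpl gave 128 CPM, and up to 38357 CPM later. Cfd had 0 UMIs on day 0. Markers of macrophages stayed at 2.39 to 3.99 CPM in sum with Adgre1, C1qa, C1qb and Tyrobp at 0 in every library, and endothelial markers at 0.384 to 1.36 CPM. Skeletal muscle markers summed to 10.7 to 32.4 CPM, epithelial markers to 0.321 to 28.9 CPM and chondrocyte or osteoblast markers to 23.8 to 130 CPM, led by Des or Acta1, by Krt19 and by Sox9.

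The promoters of Grem1 and Fstl1 are shown because these had the largest differences between day 6 and day 0 among the members with a promoter entry that could be printed. RefSeq promoters (GRCm38.p6) were matched for 6 of the 9 members, without Tgfb3, Fst and Bambi. The windows are the 250 bases before the RefSeq start. For Fstl1 only the 68 bases outside the annotated gene are printed, because a longer annotated transcript starts inside the window. Capitals mark the matches to 5 short motifs, searched on both strands.
Grem1, chr2:113758649-113758898, minus strand: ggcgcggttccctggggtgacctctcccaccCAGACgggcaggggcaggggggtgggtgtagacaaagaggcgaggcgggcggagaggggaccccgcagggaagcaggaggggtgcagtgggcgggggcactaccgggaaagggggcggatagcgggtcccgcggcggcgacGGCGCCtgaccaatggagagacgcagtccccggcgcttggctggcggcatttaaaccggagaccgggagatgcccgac
Fstl1, chr16:37776805-37776872, plus strand: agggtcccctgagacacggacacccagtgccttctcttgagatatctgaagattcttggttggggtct
The Grem1 window holds the SMAD-binding letters CAGAC starting 219 bases before the start and the BMP-SMAD letters GGCGCC starting 78 bases before it. CAGAC was also in 42.2% and GGCGCC in 9.59% of all 32851 promoter windows of this length. The whole Fstl1 window held no match to the SMAD or BMP-SMAD letters, the AP-1 motif TGANTCA (6.75% of promoters), the TEAD motif GGAATG (12.6%) or the C/EBP motif TTGCNNAA (9.56%), and the Grem1 window none to the last 3. These matches describe letters and not binding.

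Among the ligands, Tgfb1 stayed between 31.9 and 48.0 CPM, Tgfb2 was highest in untreated cells on day 6, Tgfb3 was highest on day 0, and Bmp4 was at the limit of detection. Values of the libraries follow the order day 0, then day 3 without and with P-G3, then day 6 without and with P-G3. They are sums over all kept cells, in which fewer cells with the RNA and less RNA per cell cannot be told apart. Tgfb1 (ENSMUSG00000002603, chromosome 7, 25687002 to 25705077, GRCm38) encodes the TGF-beta form best known from fibrosis and stood at 38.3, 33.2, 31.9, 48.0 and 35.1 CPM. Day 6 untreated was highest and day 0 next, while the counting interval of day 3 untreated (32.3 to 34.2 CPM) overlapped those of day 6 with P-G3 (33.99 to 36.2 CPM) and of day 3 with P-G3 (31.0 to 32.7 CPM). Tgfb2 (ENSMUSG00000039239, chromosome 1, 186622792 to 186705989) and Tgfb3 encode the other TGF-beta forms. Tgfb2 stood at 10.8, 10.7, 5.96, 20.4 and 11.6 CPM. Day 6 untreated was highest and day 3 with P-G3 lowest, while day 0, day 3 untreated and day 6 with P-G3 had overlapping intervals (10.3 to 11.4, 10.2 to 11.3 and 11.0 to 12.3 CPM).

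Tgfb3 (ENSMUSG00000021253, chromosome 12, 86056745 to 86079041) stood at 8.69, 3.90, 2.51, 3.19 and 1.81 CPM. The day 0 library was the highest, the 2 untreated libraries of days 3 and 6 had intervals that met (3.58 to 4.24 and 2.83 to 3.58 CPM), and both P-G3 libraries lay under the untreated library of their day. Ttll5, a gene on the other strand that overlaps Tgfb3, had 1194 UMIs on day 0 beside 1379 of Tgfb3 and 172 to 521 beside 194 to 545 later. No annotated exon of Ttll5 overlaps an exon of Tgfb3. The counting is not stated to use strand, and whether reads of these genes were fully separated was not tested. Bmp4 (ENSMUSG00000021835, chromosome 14, 46383520 to 46390669) had 16, 8, 1, 4 and 0 UMIs, that is at most 0.101 CPM. The counting interval of day 0 (0.0576 to 0.164 CPM) lay above that of day 3 with P-G3 (0.000141 to 0.0311 CPM), a difference of 16 against 1 UMIs, and no fold is given for so few molecules.

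**Figure D1:**
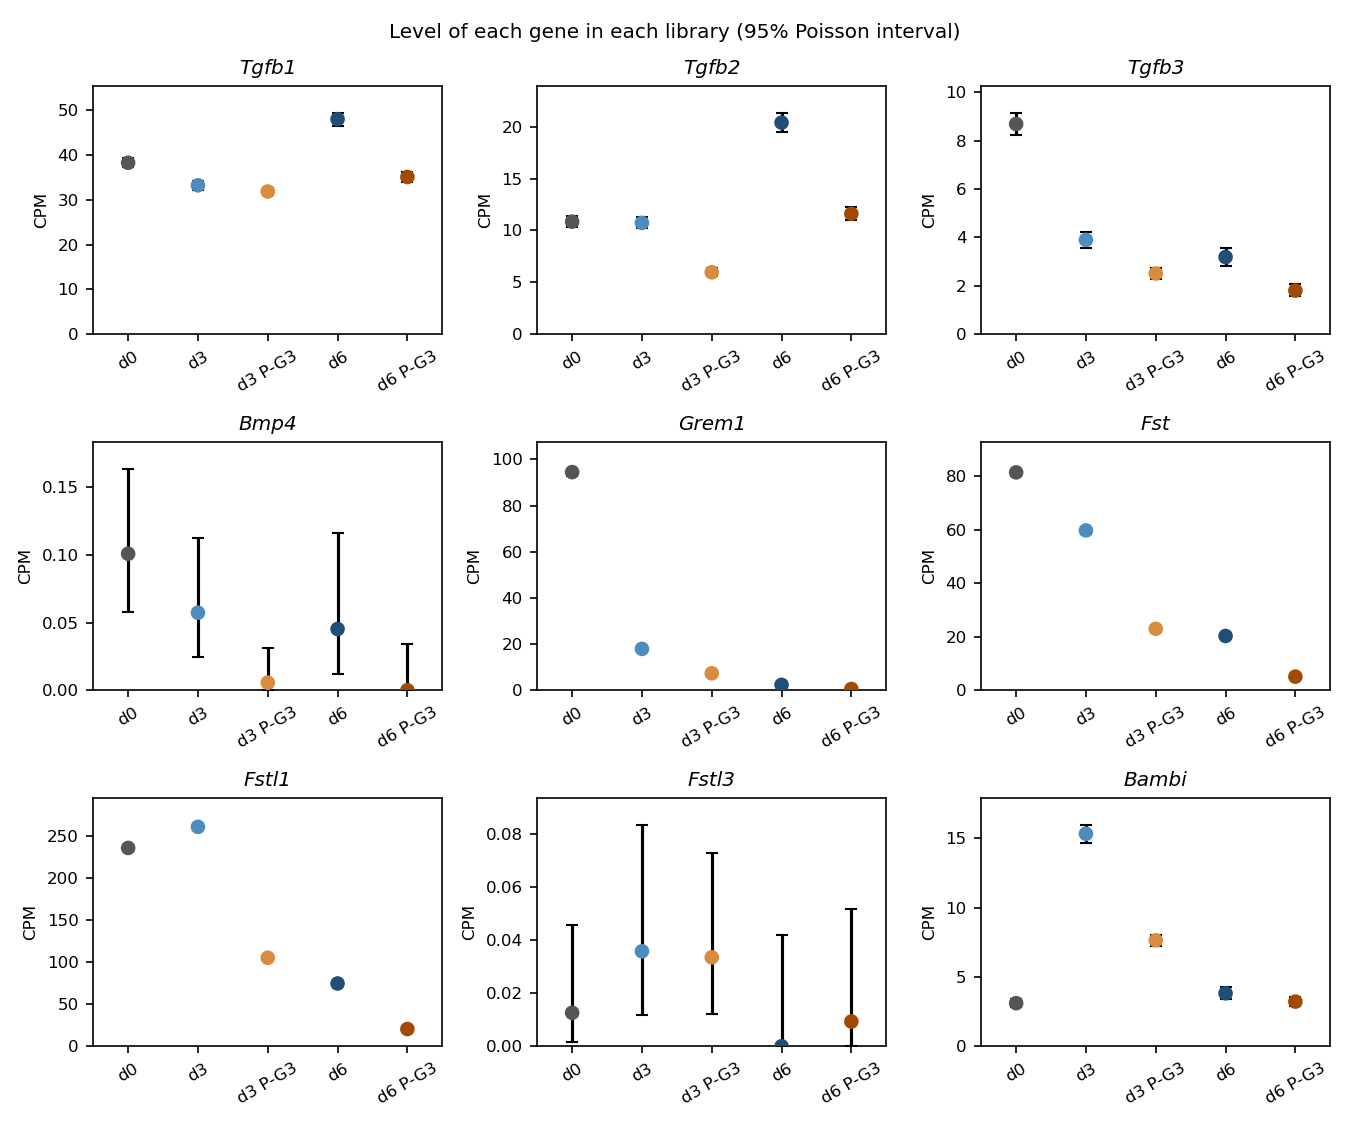
Level of each of the 9 genes (CPM, linear axes starting at 0, one scale per gene) in each library (d0, d3 and d6 are the days; P-G3 marks the polymer), with bars for the exact 95% Poisson interval of the count. Grem1, Fst and Fstl1 are lowest in P-G3 cells on day 6, Bambi stands out in untreated cells on day 3 at 15.3 CPM, and the Bmp4 and Fstl3 points rest on 16 UMIs or fewer.

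The antagonists Grem1, Fst and Fstl1 were high in confluent cells and low in day 6 cells. Grem1 (ENSMUSG00000074934, chromosome 2, 113746164 to 113758646) encodes gremlin 1, a secreted protein that binds and blocks BMP2, BMP4 and BMP7. It stood at 94.5, 17.9, 7.34, 2.33 and 0.521 CPM. No counting intervals of these levels overlapped, and the order ran from day 0 down to day 6 with P-G3. Fst (ENSMUSG00000021765, chromosome 13, 114452290 to 114458951) encodes follistatin, which neutralises activins and binds some BMPs, and stood at 81.5, 59.8, 23.0, 20.3 and 5.08 CPM. Its order was the same, and the day 3 P-G3 and day 6 untreated intervals were close but apart (22.3 to 23.7 and 19.4 to 21.3 CPM).

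Fstl1 (ENSMUSG00000022816, chromosome 16, 37776873 to 37836514) encodes a secreted glycoprotein with a follistatin-like domain. It stood at 236, 261, 105, 74.7 and 20.5 CPM, with day 3 untreated above day 0. Bambi (ENSMUSG00000024232, chromosome 18, 3507923 to 3516404), a membrane protein that resembles a TGF-beta family receptor without its kinase, stood at 3.11, 15.3, 7.64, 3.82 and 3.22 CPM. Like Fstl1 it was highest in untreated cells on day 3, and the interval of day 6 with P-G3 (2.89 to 3.58 CPM) overlapped those of day 0 (2.84 to 3.39 CPM) and of day 6 untreated (3.43 to 4.25 CPM). Fstl3 (ENSMUSG00000020325, chromosome 10, 79777272 to 79782630), a relative of follistatin that also binds activins, had 2, 5, 6, 0 and 1 UMIs. Prss57, which overlaps it on the other strand, had 5 to 10 UMIs, so Fstl3 is uncertain in every library.

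The first 3 comparisons follow untreated cells from confluence through induction. A gene was counted as higher or lower when the CPM of the libraries differed at least 2-fold and at least 1 of them reached 20 CPM. Tgfb3, Bmp4, Fstl3 and Bambi never reached 20 CPM and could not be counted in any comparison. From day 0 to day 3, Grem1 was 5.27-fold lower (log2 ratio -2.40, interval -2.46 to -2.34). It was the 1 member counted as lower among 4 that could be counted, and none was counted as higher, where 3.99% of 5716 genes were lower and 6.42% higher. Bambi, under the level limit, was 4.94-fold higher (2.30, 2.16 to 2.45), and Tgfb3 was 2.23-fold lower (-1.16, -1.30 to -1.01). Fst had a log2 ratio of -0.45 (-0.49 to -0.41), Tgfb1 of -0.20 and Tgfb2 of -0.02, and Fstl1 one of 0.15 that was -0.01 with median-of-ratios scaling.

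From day 3 to day 6 without polymer, Fstl1 was 3.50-fold lower (log2 ratio -1.81, -1.84 to -1.77) and Fst 2.95-fold lower (-1.56, -1.63 to -1.49). These were 2 of the 4 members that could be counted, where 5.36% of 5936 genes were lower and 8.25% higher. Grem1 was under 20 CPM in both libraries and 7.69-fold lower (-2.94, -3.16 to -2.74), and Bambi, also under that level, was 4.01-fold lower (-2.004, -2.17 to -1.84). Tgfb1 and Tgfb2 lay on the other side. Tgfb2 was 1.90-fold higher (0.93, 0.83 to 1.03) and Tgfb1 1.44-fold higher (0.53, 0.47 to 0.59), both under 2-fold. Tgfb3 had a log2 ratio of -0.29 (-0.50 to -0.08). Among cells of like depth (30000 to 60000 UMIs) the ratio was -2.22 for Grem1 and -1.20 for Fstl1.

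Over the whole course, from day 0 to day 6, Grem1 was 40.6-fold lower (log2 ratio -5.34, -5.55 to -5.14), Fst 4.02-fold lower (-2.01, -2.08 to -1.93) and Fstl1 3.16-fold lower (-1.66, -1.70 to -1.62). These were 3 of the 5 members that could be counted, where 10.5% of 6086 genes were lower and 17.2% higher. Only 0.124% of the genes that reached 5 CPM in one of these libraries had a lower ratio than Grem1. Fstl1 was lower by only a log2 ratio of -0.9996 among cells of that like depth, where Grem1 was still at -4.77. Tgfb2 was 1.88-fold higher (0.91), Tgfb1 had a log2 ratio of 0.33, Bambi one of 0.30 and Tgfb3 one of -1.45. All 6 comparisons given here share libraries with others and are not independent.

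The question of the P-G3 comparisons is how cells given the polymer during induction differed from untreated cells of the same day. On day 3, Fst was 2.601-fold lower with P-G3 (log2 ratio -1.38, -1.43 to -1.33) and Fstl1 2.48-fold lower (-1.31, -1.34 to -1.28). These were 2 of the 3 members that could be counted, where 2.3% of 5439 genes were lower and 0.129% higher. Grem1 was 2.44-fold lower (-1.29, -1.39 to -1.19) and Bambi 2.01-fold lower (-1.004, -1.10 to -0.91), both under 20 CPM. Tgfb2 had a log2 ratio of -0.85 (-0.96 to -0.73) and Tgfb3 of -0.64 (-0.82 to -0.45). Tgfb1 differed least, with a log2 ratio of -0.06 that was 0.18 with TMM scaling and 0.21 with median-of-ratios scaling.

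On day 6, Fst was 3.99-fold lower with P-G3 (log2 ratio -1.998, -2.14 to -1.86) and Fstl1 3.65-fold lower (-1.87, -1.94 to -1.80). These were 2 of the 4 members that could be counted, where 4.4% of 5564 genes were lower and 0.126% higher. Grem1 was 4.47-fold lower (-2.16, -2.61 to -1.73) on 56 against 206 UMIs. That ratio was -3.54 in cells of 30000 to 60000 UMIs (12 against 113 UMIs) and -1.13 with a pseudocount of 1 CPM. Tgfb2 was 1.76-fold lower (-0.81, -0.92 to -0.71), Tgfb3 had a log2 ratio of -0.82 (-1.09 to -0.55) and Tgfb1 of -0.45 (-0.52 to -0.39). Bambi had a log2 ratio of -0.25 (-0.47 to -0.03) that was 0.09 with TMM scaling and 0.14 with median-of-ratios scaling. Fst passes the level limit only just, at 20.3 CPM in the untreated library.

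With P-G3, the ratios of all genes leaned with transcript length, and this touches every P-G3 ratio. The Spearman correlation across genes between the log2 ratio and the transcript length was -0.60 on day 3 and -0.62 on day 6, against -0.11 to 0.16 in the comparisons between days. The median log2 ratio of all genes was -0.24 and -0.36, and with TMM scaling -0.003 and -0.02. Relative to genes of like length, the day 3 ratios became -1.17 for Fst, -0.97 for Fstl1, -0.90 for Grem1, -0.57 for Bambi, -0.41 for Tgfb2, -0.33 for Tgfb3 and 0.07 for Tgfb1. Fst then remained the 1 member counted as lower on day 3. On day 6 they became -1.64 for both Fst and Grem1, -1.39 for Fstl1, -0.32 for Tgfb3, -0.23 for Tgfb2, -0.19 for Tgfb1 and 0.33 for Bambi. The part of the length trend in the results was not tested.

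Within the P-G3 arm, day 6 was set against day 3. Fstl1 was 5.14-fold lower (log2 ratio -2.36, -2.43 to -2.30) and Fst 4.52-fold lower (-2.18, -2.31 to -2.05). These were 2 of the 3 members that could be counted, where 6.06% of 5145 genes were lower and 7.46% higher. Grem1, under the level limit, was 14.1-fold lower (-3.82, -4.23 to -3.43; -4.48 at 30000 to 60000 UMIs and -2.45 with the pseudocount) and Bambi 2.37-fold lower (-1.25, -1.42 to -1.08). Tgfb2 was 1.95-fold higher (0.96, 0.84 to 1.08). Tgfb1 had a log2 ratio of 0.14, and -0.08 as a mean over cells.

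**Figure D2:**
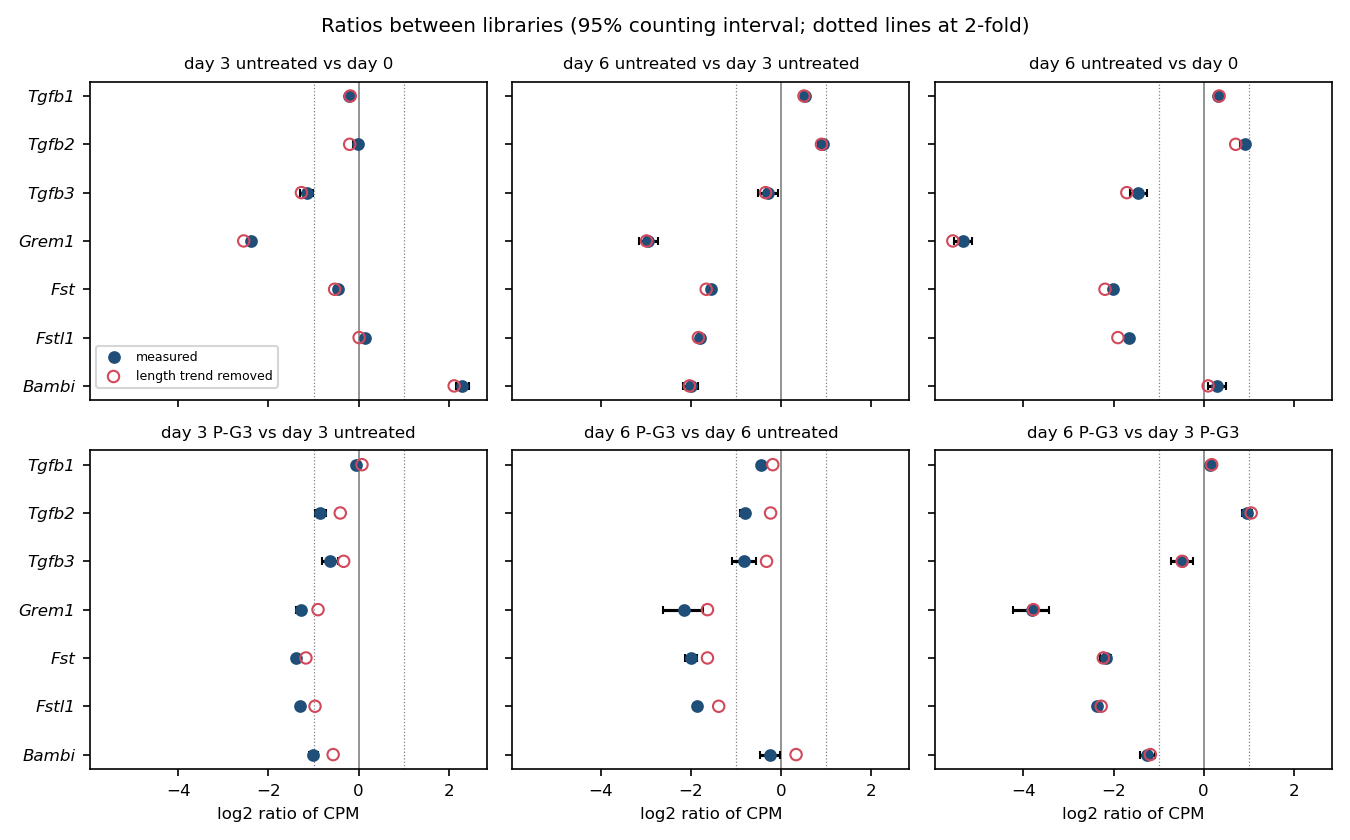
Log2 ratio of CPM between libraries (x axis) for the 7 genes with at least 5 CPM in a library, one panel per comparison, with bars for the 95% counting interval and dotted lines at 2-fold. Filled points are the measured ratios, open circles the ratios relative to genes of like transcript length. Grem1 reaches -5.34 from day 0 to day 6, and the open circles lie to the right of the filled points in both panels of P-G3 against untreated.

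Within each library, cells were ranked by the share of their UMIs that came from 15 contractile genes such as Acta2 and Tagln, and the highest quintile (1 of 5 equal parts) was set against the lowest. No member is in that list, and only cells with at least 10000 UMIs were used, which gave 308 to 735 cells a quintile. On day 0, contractile genes made up a median of 0.386% of UMIs in the lowest quintile and 1.27% in the highest. In the highest quintiles of the induced libraries they made up only 0.209% to 0.441%. The same rank thus stands for different contractile shares on day 0 and after induction. On day 0, Grem1 stood at 37.1 CPM in the most contractile cells and at 185 CPM in the least contractile ones, a log2 ratio of -2.31 (-2.40 to -2.22). After induction Grem1 lay on the other side, at 36.8 against 1.34 CPM in untreated cells on day 3 (4.77, 4.37 to 5.21), 15.4 against 1.56 CPM in P-G3 cells on day 3 (3.31) and 10.7 against 0.155 CPM in untreated cells on day 6 (6.10, on 3 UMIs in the lowest quintile). In P-G3 cells on day 6 it had 17 UMIs against 0, a ratio of at least 2.92. With all kept cells ranked it had 42 UMIs against 0, where the bound was -0.003 and gave no direction. Fst and Fstl1 were higher in the most contractile cells of every library. Their log2 ratios were 0.78 and 0.72 on day 0, 2.98 and 3.28 in untreated cells on day 3, 3.23 and 3.77 in P-G3 cells on day 3, 5.68 and 6.22 in untreated cells on day 6 and 5.18 and 5.42 in P-G3 cells on day 6. With each cell thinned to 10000 UMIs before ranking, the untreated ratios were 3.14 for Grem1, 2.23 for Fst and 2.32 for Fstl1 on day 3, and at least 3.46 for Grem1 (33 against 0 UMIs), 4.90 for Fst and 5.65 for Fstl1 on day 6. With P-G3 on day 3 they were 1.59 for Grem1, 2.33 for Fst and 2.598 for Fstl1, and on day 0 Grem1 stood at -2.46. Tgfb2 had ratios from -0.92 to -0.43 in the induced libraries and -0.04 on day 0, where the interval held 0. Tgfb1 had -0.76 on day 0 and 0.24 to 0.91 later.

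Ranking by the share of UMIs from 20 adipocyte genes such as Adipoq, Fabp4 and Plin1 gave ratios of the opposite sign for these genes in induced cells. In untreated cells on day 6, the highest quintile had no Grem1 UMI and the lowest 171 (14.9 CPM), a log2 ratio of -6.67 or lower. In the same library Fstl1 stood at 4.55 against 334 CPM (-6.20, -6.51 to -5.90) and Fst at 4.99 against 93.6 CPM (-4.23, -4.54 to -3.94). In the quintile with least adipocyte RNA in untreated cells on day 6, Fst and Fstl1 stood above their level in the whole day 0 library (81.5 and 236 CPM) and Grem1 below its own (94.5 CPM). Day 0 cells, in which adipocyte genes made up a median of only 0.0466% of UMIs in the highest quintile, had small ratios of 0.71 for Grem1, 0.39 for Fst and 0.79 for Fstl1. On day 3 the ratios of Grem1, Fst and Fstl1 were -4.81, -2.76 and -3.19 untreated and -4.48, -3.29 and -3.86 with P-G3. In P-G3 cells on day 6 they were -4.52 or lower for Grem1, -4.55 for Fst and -5.28 for Fstl1.

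Of the 7 members that reached 5 CPM, only Tgfb2 had ratios above 0 by adipocyte genes in every library, at 0.57, 0.62, 0.65, 0.87 and 1.62. With cells thinned to 10000 UMIs these were 0.06, 0.44, 0.36, 0.62 and 1.70, and the intervals of day 0 and of both day 3 libraries held 0. In P-G3 cells on day 6 it stood at 17.2 CPM in the highest quintile and 5.596 CPM in the lowest (1.26 to 2.00). Bambi had ratios of -1.55 to -1.06 in the 4 induced libraries and -0.04 on day 0, Tgfb3 of -2.28 to -0.49 in induced cells and 0.57 on day 0, and Tgfb1 of -0.57 to -0.15 in induced cells and 0.33 on day 0. In the induced libraries, the highest adipocyte quintile was also deeper, with a median of 58778 to 69888 UMIs per cell against 27994 to 33834 in the lowest, and the most contractile quintile was shallower than the least contractile one (33885 to 41930 against 56136 to 65885). With each cell thinned to 10000 UMIs before ranking, the ratios in untreated cells on day 6 were -6.09 for Fstl1 and -4.05 for Fst.

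By the share of UMIs from 28 genes of dividing cells, Grem1 had a log2 ratio of -0.79 on day 0, -1.17 in untreated cells on day 3, -2.15 in P-G3 cells on day 3, 0.06 in untreated cells on day 6 and 1.59 in P-G3 cells on day 6, the last on 21 against 6 UMIs. The untreated day 6 ratio was -0.58 (-1.90 to 0.67) with cells thinned to 10000 UMIs and -1.35 (-2.26 to -0.35) with all kept cells ranked. The P-G3 day 6 ratio was -1.24 (-3.51 to 2.01) with all kept cells ranked, on 9 against 2 UMIs, and thinned it had 1 UMI against 0, which gives no ratio. Tgfb2 was lower in the most dividing cells on day 3, at -0.62 untreated and -1.34 with P-G3 (-0.64 and -1.10 thinned). Fst stood at -0.70 on day 0 and 0.70 in untreated cells on day 6. In the highest quintile, genes of dividing cells made up a median of 0.438% of UMIs on day 0. On day 3 they made up 0.604% without and 0.628% with P-G3, and on day 6 only 0.0575% and 0.0395%. The most dividing cells of day 6 are thus unlike those of days 0 and 3 in this share. Quintiles are ranges of a score and not cell types, and the same cells can be ranked high or low by more than 1 score.

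**Figure D3:**
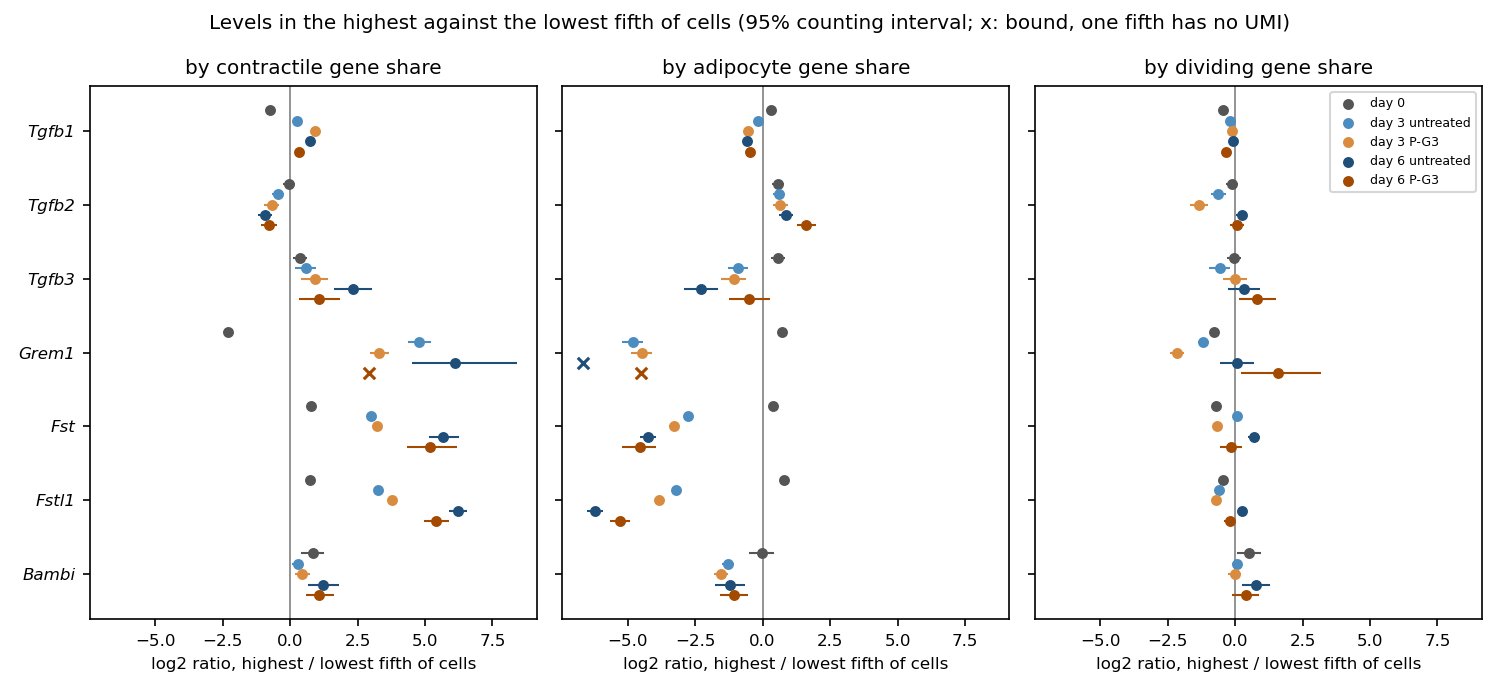
Log2 ratio of CPM in the highest against the lowest quintile of cells (x axis) for 7 genes, by contractile, adipocyte and dividing gene share, one colour per library, with 95% counting intervals and crosses for bounds where a quintile had no UMI. Grem1 lies at -2.31 for contractile genes on day 0 and above 0 in the induced libraries, while Fst and Fstl1 spread from 0.72 to 6.22 on the contractile scale and down to -6.20 on the adipocyte scale.

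The 8 adipocyte markers summed to 12612 CPM with P-G3 and 8455 CPM without on day 3, and to 38357 and 32533 CPM on day 6. P-G3 was therefore also set against untreated among cells of like adipocyte gene share. Cells were put into 4 ranges (under 0.1%, 0.1 to 0.5%, 0.5 to 2% and 2% or more of a cell's UMIs). This comparison was added after the data were seen, and the lowest range held under 50 cells in each day 6 library and was left out there. On day 3, the range under 0.1% held 25.9% of untreated and 11.8% of P-G3 cells, and that of 2% or more 10.8% and 16.8%. Fst was lower with P-G3 in all 7 ranges compared, at log2 ratios of -0.83, -0.99, -0.94 and -0.90 on day 3 and -1.76, -1.21 and -1.55 on day 6. In the range of 0.1 to 0.5% it stood at 37.4 against 74.3 CPM on day 3 and at 33.2 against 113 CPM on day 6. Fstl1 was lower in the same 7 ranges, at -0.60, -0.98, -0.61 and -0.76 on day 3 and -1.44, -1.46 and -1.14 on day 6. Relative to genes of like length, both remained below 0 in the 7 ranges, from -1.46 to -0.52 for Fst and from -0.93 to -0.20 for Fstl1.

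Grem1 did not follow the same pattern in cells of like adipocyte share. Its ratios were -0.26, -0.97, 0.55 and -0.15 on day 3 and -2.84, -0.31 and -0.92 on day 6, the last on 5 against 7 UMIs, and the interval lay below 0 in 3 of 7 ranges. Only 3 of the 7 stayed below 0 relative to genes of like length. On day 3 the range under 0.1% held Grem1 at 30.6 CPM with P-G3 and 36.6 CPM without. Tgfb2 was lower with P-G3 in 7 of 7 ranges (-1.32 to -0.67), also relative to genes of like length (-0.67 to -0.02). Tgfb1 ranged from -0.42 to 0.10, and Bambi from -1.01 to -0.10, which became -0.52 to 0.51 relative to genes of like length.

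**Figure D4:**
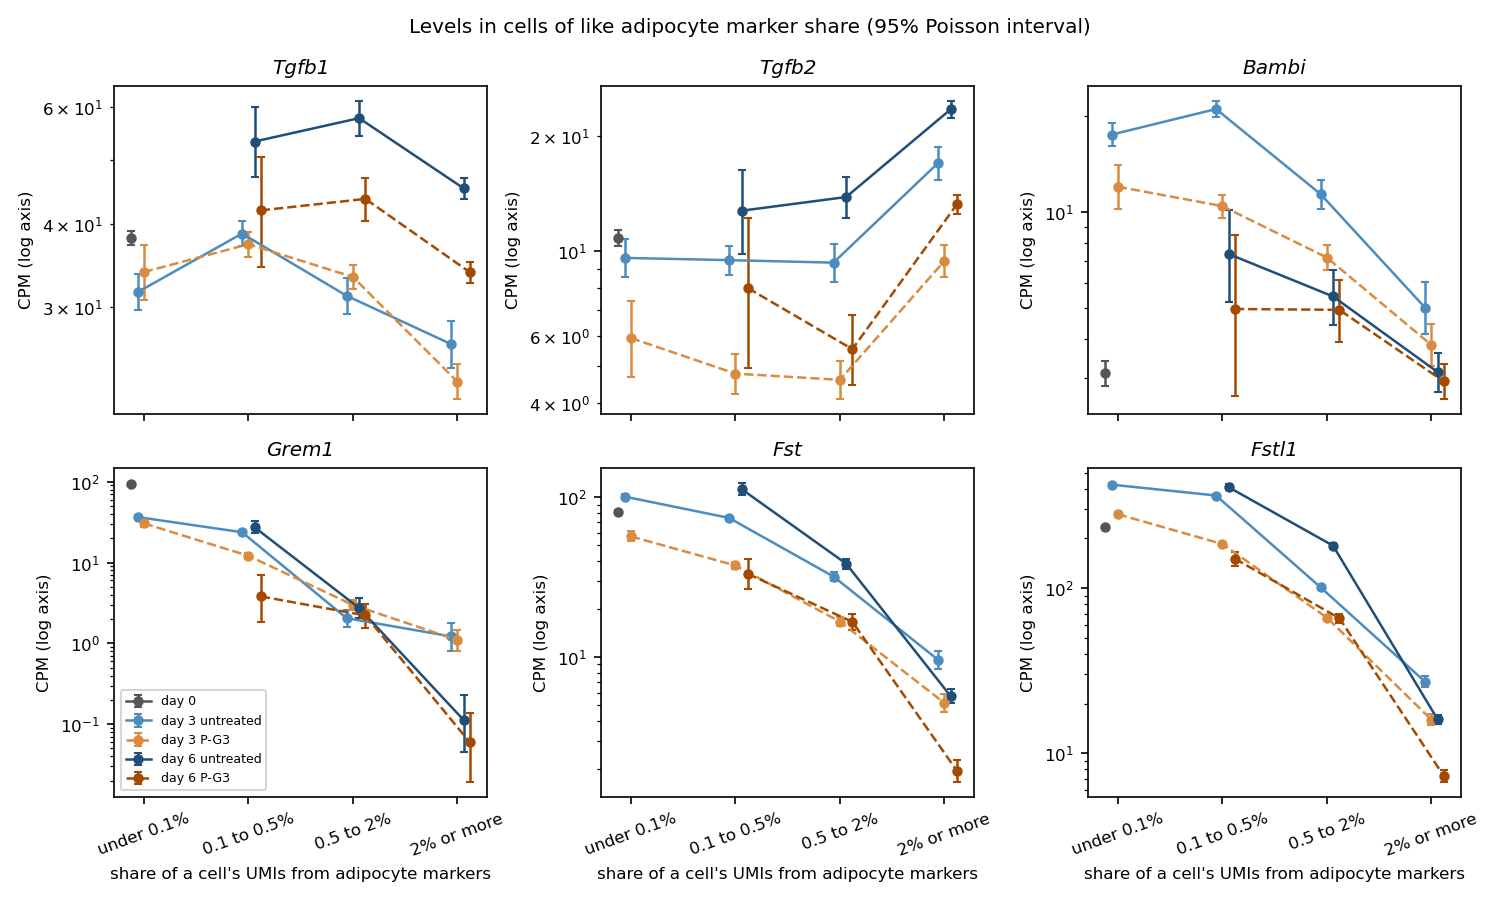
CPM (log axis) of 6 genes in cells grouped by the share of their UMIs from adipocyte genes (x axis), one line per library, dashed for P-G3, with 95% Poisson intervals. Day 0 has only the lowest range. The dashed P-G3 line lies below the untreated line of its day for Fst, Fstl1 and Tgfb2 in the 7 ranges compared, whereas the day 3 lines of Grem1 cross (2.99 against 2.05 CPM at 0.5 to 2%).

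The share of cells with a UMI was read after thinning, since it grows with depth. With each cell thinned to 10000 UMIs, Grem1 was seen in 43.9%, 13.7%, 7.59%, 1.88% and 0.744% of cells (73.9%, 23.0%, 13.8%, 2.63% and 0.874% without thinning). Fstl1 was seen in 85.7%, 76.1%, 57.3%, 34.4% and 16.6% (99.0%, 87.8%, 79.1%, 34.5% and 19.9% without thinning) and Fst in 43.9%, 36.6%, 19.2%, 14.8% and 5.48% (77.5%, 61.1%, 41.3%, 21.7% and 8.29%). For these 3 genes day 0 had the highest share and day 6 with P-G3 the lowest. No order of Fstl1 between day 0 and day 3 untreated is read from the shares, since the CPM lay the other way (236 and 261 CPM). Tgfb1 was seen in 38.7% of day 6 untreated cells and in at most 30.8% in the other libraries (42.4% to 75.9% without thinning). Thinning left out 28, 203, 218, 927 and 1665 shallower cells. The cultures hold no cell type known to lack these genes, so the share that free RNA gives was not measured. In the highest adipocyte quintile of day 6 untreated (20442579 UMIs), Grem1 had no UMI, Fst 102 and Fstl1 93. Grem1 had only 206 UMIs in all kept cells of that library, and the part of free RNA was not tested.

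Grem1, Fst and Fstl1 were spread unevenly over cells. In thinned day 0 cells, 51.3% of Grem1 UMIs came from the tenth of cells with most. That share was 48.1% for Tgfb1, 47.0% for Fst and 28.5% for Fstl1, so it does not measure unevenness by itself. The variance of Grem1 was 3.18 times its mean, where 1 is what random sampling of equal cells gives. This ratio was 1.99 for Fst, 1.80 for Fstl1, 1.22 for Tgfb1 and 1.04 for Bambi. Fstl1 reached 4.32 in untreated cells on day 6. Across cells of 1 library, Fst and Fstl1 went together, with a Pearson correlation of log counts of 0.41 in untreated cells on day 6 (1541 cells), 0.27 in untreated cells on day 3, 0.20 in P-G3 cells on day 3 and 0.11 on day 0. Grem1 and Fstl1 stood at 0.21 in P-G3 cells on day 3 and 0.15 in untreated cells on day 3. The other pairs were weak, from -0.06 to 0.10, which in such sparse counts says little.

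The genes whose profile over the 5 libraries was most like that of a member were found among 6055 genes with at least 20 CPM in a library, by the root mean square distance of centred log2(CPM + 1). For Grem1 they were Hmga2 (0.19), Prss23 (0.34) and Dpysl3 (0.47), with Hmga2 at 712, 128, 46.8, 22.8 and 7.12 CPM. For Fstl1 they were Ccn1 (0.098), Gas1 (0.18) and Fst (0.23), and for Fst they were Tmem119 (0.13), Cacnb3 (0.17) and Pcdh19 (0.18). Tgfb1 lay nearest to Slc35c2 (0.038), Cers2 (0.044) and Vapa (0.056), and Tgfb2 to Rell1 (0.046), Tab2 (0.096) and Xpot (0.11). The distances describe likeness over 5 libraries and nothing more.

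The rest of the pathway was read from lists of other ligands, antagonists, latency and activation genes, receptors, SMADs and their regulators, and response genes. These lists too were chosen with earlier results of these data known, so their counts are descriptive. Of 24 other ligands, 18 were under 1 CPM in every library and only Inhba reached 20 CPM. Inhba, the activin A subunit that follistatin neutralises, stood at 25.4, 4.49, 2.31, 1.46 and 0.940 CPM. It was highest on day 0 and the 1 other ligand that could be counted against day 0. It was lower on day 3 (log2 ratio -2.50) and on day 6 (-4.12), beside 3.99% and 10.5% of all genes. Of 26 other antagonists, 6 could be counted from day 0 to day 3 and none was higher or lower, beside 6.42% and 3.99% of all genes. With median-of-ratios scaling and relative to genes of like length 1 was lower, and without the 5% of cells with most UMIs and as a mean over cells 1 was higher. Vasn, which binds TGF-beta, stood at 32.7 and 56.8 CPM on these days and the proteoglycan decorin (Dcn) at 130 and 223 CPM. From day 3 to day 6, 3 of 6 were lower, among them Vasn (-2.10) and Dcn (-1.29), and 1 was higher, beside 5.36% and 8.25% of all genes. With P-G3 on day 3 Vasn had a log2 ratio of -1.05. From day 0 to day 6, 2 of 6 were lower and 1 higher, beside 10.5% and 17.2% of all genes. The 2 were Vasn (-1.31) and Rgmb (-1.06), which is in this list although it is a BMP co-receptor. Among cells of 30000 to 60000 UMIs 1 was lower and 1 higher from day 3 to day 6, and none lower and 1 higher from day 0 to day 6.

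Of the genes that store and free latent TGF-beta, 6 of 13 that could be counted were lower from day 0 to day 6 and 1 higher, beside 10.5% and 17.2% of all genes, with a median log2 ratio of -0.73 against 0.14 for all genes. Among cells of 30000 to 60000 UMIs 3 were lower and 1 higher. Thrombospondin 1 (Thbs1), an activator of latent TGF-beta, stood at 59.6, 14.9, 2.14, 5.93 and 1.16 CPM. Fibrillin 1 (Fbn1), which anchors the latent complex in the matrix, stood at 123, 26.6, 9.61, 14.8 and 4.51 CPM, and the latent TGF-beta binding protein Ltbp1 at 39.9, 23.0, 9.84, 9.45 and 3.84 CPM. For these 3 genes both P-G3 libraries lay below the untreated library of their day. Bmp1, a protease, had a log2 ratio of P-G3 against untreated of -0.48 on day 3 and -1.08 on day 6. With P-G3, 2 of 11 listed genes that could be counted were lower on day 3, beside 2.3% of all genes. On day 6, 3 of 10 were, beside 4.4%. Relative to genes of like length none was lower on either day. With TMM or median-of-ratios scaling 1 was lower on day 3 and none on day 6. Among cells of 30000 to 60000 UMIs 6 of 11 were lower on day 6, and 5 of 10 with a mitochondrial limit of 10%. The list medians of -0.66 and -1.002 became -0.34 and -0.36 relative to genes of like length.

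Of 5 receptors that could be counted from day 0 to day 3, Tgfbr3 (42.3 and 85.7 CPM) was higher, beside 6.42% of all genes. Of 5 from day 0 to day 6, Tgfbr1 (14.9 and 35.3 CPM) was higher, beside 17.2% of all genes. None of the 4 or 5 receptors that could be counted was lower in the 6 comparisons, where 2.3% to 10.5% of all genes were lower. Tgfbr3 had a log2 ratio of 1.02 and was not counted with TMM or median-of-ratios scaling or among cells of 30000 to 60000 UMIs. It was also not counted with a mitochondrial limit of 10% or relative to genes of like length. Tgfbr1 was not counted as a mean over cells. Among cells of 30000 to 60000 UMIs 2 receptors were lower with P-G3 on day 6. Tgfbr2 had log2 ratios of 0.86 on day 3 against day 0 and of -0.97 with P-G3 on day 3, and Bmpr2 of -0.79 and -0.94 with P-G3 on days 3 and 6. The receptor median with P-G3 was -0.73 on day 3 and -0.81 on day 6 (all genes -0.24 and -0.36), and -0.19 and -0.17 relative to genes of like length. Among the SMADs and their regulators, 3 of 10 that could be counted were lower from day 0 to day 3 and none higher, beside 3.99% and 6.42% of all genes. From day 0 to day 6, 3 of 11 were lower and 3 higher, beside 10.5% and 17.2%, with a median of -0.06 (all genes 0.14). Inside the cell, the inhibitor Smad7 stood at 31.1, 9.59, 4.45, 4.67 and 1.51 CPM and the feedback gene Pmepa1 at 187, 41.3, 19.9, 28.9 and 24.5 CPM, both highest on day 0. Smurf1, a ubiquitin ligase that targets SMADs and receptors, was higher on day 6 than on day 3, at 40.3 against 13.9 CPM untreated and 24.5 against 8.33 CPM with P-G3, and the co-repressor Ski had a ratio of -1.26 from day 0 to day 6.

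Genes known to respond to TGF-beta were mostly lower after induction. From day 0 to day 3, 9 of 16 that could be counted were lower and 2 higher, beside 3.99% and 6.42% of all genes (median -1.17, all genes 0.09). From day 0 to day 6, 10 of 16 were lower and 1 higher, beside 10.5% and 17.2% of all genes (median -0.97, all genes 0.14). Tagln, an actin-binding protein of smooth muscle, stood at 530, 41.4, 9.79, 15.0 and 6.24 CPM and smooth muscle actin (Acta2) at 2992, 571, 229, 247 and 209 CPM. Ccn1, a matricellular gene, stood at 42.4, 42.2, 17.3, 10.6 and 2.96 CPM. With P-G3, 8 of 15 were lower on day 3 and 8 of 13 on day 6, none higher, beside 2.3% and 4.4% of all genes lower. With TMM or median-of-ratios scaling 5 were lower on each day, and relative to genes of like length 4 and 2. The list had medians of -0.99 and -1.06 that became -0.62 and -0.34 relative to genes of like length. These lists overlap each other and the contractile genes.

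Of the BMP response genes, 4 of 14 reached 20 CPM. Id1 stood at 216, 298, 307, 181 and 171 CPM and Id3 at 198, 267, 165, 78.5 and 58.1 CPM, with day 3 untreated above day 0 and day 6 below it. Id2 stood at 37.9, 28.2, 14.8, 2.04 and 1.23 CPM. From day 0 to day 3, 1 of 4 that could be counted, Smad7, was lower and none higher, beside 3.99% and 6.42% of all genes. From day 3 to day 6, 2 of 3 were lower, Id2 (-3.79) and Id3 (-1.77), and none higher, beside 5.36% and 8.25% of all genes. From day 0 to day 6, 3 of 4 were lower (Id2, Id3 and Smad7) and none higher, beside 10.5% and 17.2% of all genes. With P-G3 on day 3 the log2 ratios were 0.04 for Id1, -0.70 for Id3 and -0.93 for Id2. None of the 3 genes that could be counted was lower by 2-fold, beside 2.3% of all genes.

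**Figure D5:**
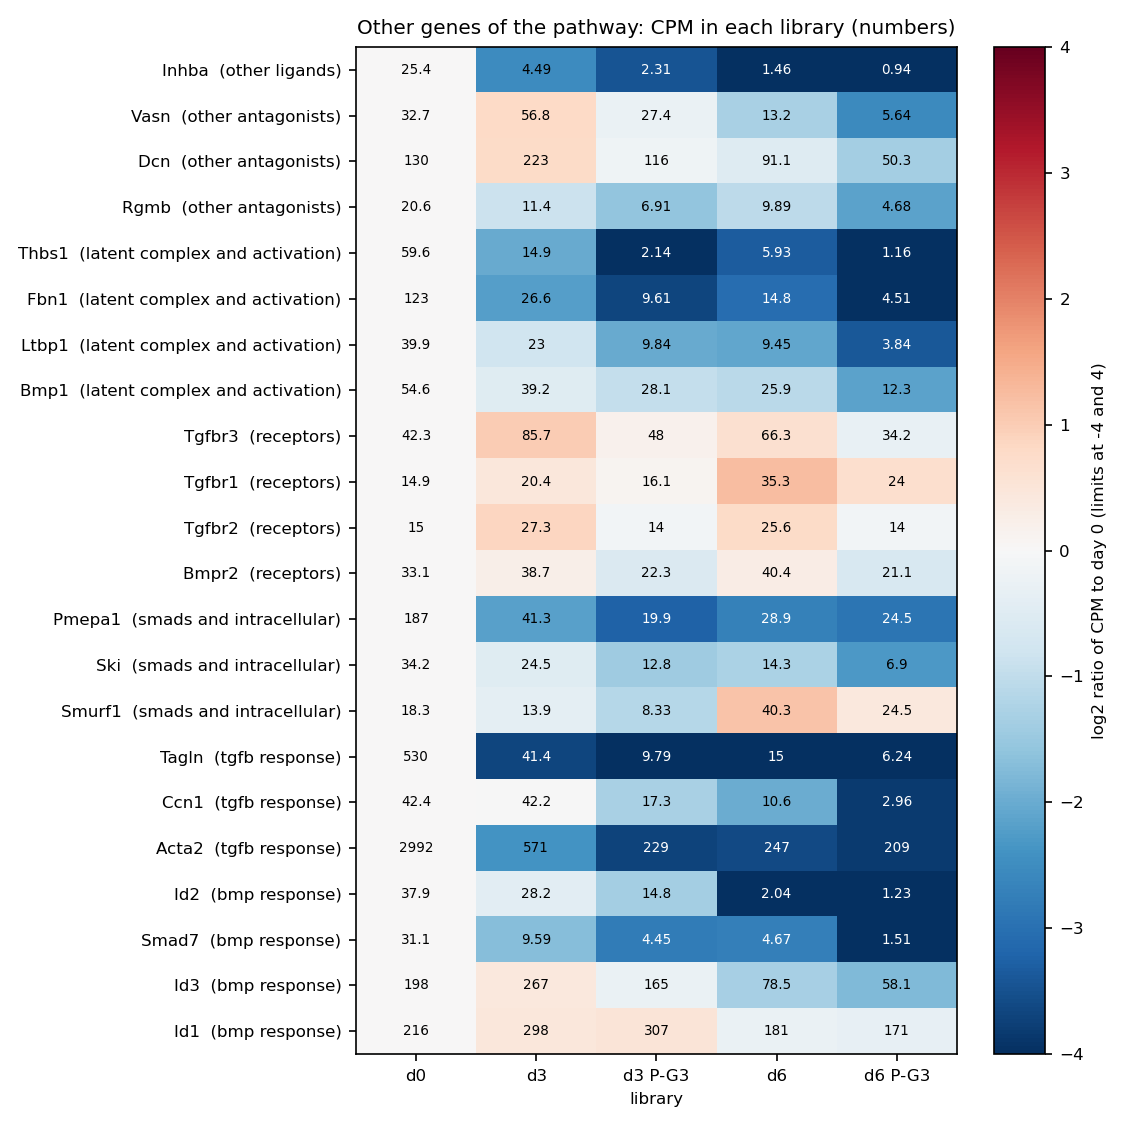
CPM (numbers) of 22 other pathway genes in each library (columns), coloured by the log2 ratio to day 0, with the list of each gene in brackets. Tagln goes from 530 CPM on day 0 to 6.24 CPM in P-G3 cells on day 6, and Tgfbr1 and Smurf1 are above day 0 in both day 6 libraries.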

How the data were processed

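Droplet single-cell RNA libraries (Chromium 3' chemistry, per the labels' protocols) of 5 cultures were used, 1 per group. The authors deposited UMI counts per gene and barcode. The submitters' processing notes name Cell Ranger 3.1.0, the matrix headers version 5.0.1, and the genome is GRCm38; the annotation release is not given in the sources used here, and gene positions and lengths come from GENCODE vM21 (32158 of 32285 genes matched). From these counts, barcodes with at least 500 genes and at most 20% mitochondrial UMIs were kept, doublets were not removed, and UMIs were summed per library and scaled to CPM. Levels carry exact Poisson, ratios exact conditional binomial and shares Clopper-Pearson 95% intervals, for counting error only. A ratio against 0 UMIs used 3 counts as the floor. Medians were taken over genes that reached 5 CPM in one of the libraries compared. The length trend is the median ratio of genes in 20 bins of transcript length. TMM factors came from edgeR 4.0.16 (R 4.3.3), and all else from Python 3.11.15 with numpy 2.4.6, scipy 1.17.1 and pandas 2.3.3; the scripts were tested on simulated data. All 9 members are named. From each pathway list up to 4 genes with at least 20 CPM and the largest range over libraries are named, and for each member with at least 20 CPM the 3 nearest profiles. A gene of these lists is not reported here. The members and lists were chosen with earlier results of these data known. Alternatives covered scaling, filters, depth, the fold and level limits and the grouping of cells.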

Additional observations from a re-analysis of the deposited data

Results flagged for a closer look

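Ratios of Grem1 between the ends of a ranking of cells differed in sign between libraries, by at least 2-fold in each direction. In the most against the least contractile quintile of cells its log2 ratio was -2.31 on day 0, 4.77 in untreated cells on day 3, 3.31 in P-G3 cells on day 3, 6.10 in untreated cells on day 6 and at least 2.92 in P-G3 cells on day 6. By the share of UMIs from genes of dividing cells it was -1.17 in untreated cells on day 3, -2.15 in P-G3 cells on day 3 and 1.59 in P-G3 cells on day 6, the last on 21 against 6 UMIs. That last ratio was -1.24 with all kept cells ranked, on 9 against 2 UMIs, so the sign difference by dividing genes rests on the choice of cells. On day 0 the lowest quintile had a median contractile share of 0.386%. The highest quintiles of the induced libraries had only 0.209% to 0.441%. In P-G3 cells on day 6, the highest quintile by dividing genes had a median share of 0.0395%, beside 0.604% and 0.628% on day 3. Quintiles of the same rank thus held unlike shares in these libraries. These signs differ between libraries, each of which is 1 culture, and the difference between them was not tested.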

How the results depend on the processing

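No paired analysis was possible because each group is 1 library and the groups share no culture. Leaving out a library was not possible for the same reason. Of the counts of members past the limits, 63 stayed within 1.5 times of the value given under the alternatives tried and 9 did not. With a level limit of 5 CPM, 3 of 7 members that could be counted passed from day 0 to day 3 (Tgfb3 and Grem1 lower, Bambi higher). From day 3 to day 6, 4 of 6 passed in untreated cells and 4 of 6 in P-G3 cells, and 4 of 6 for P-G3 on day 3 (Grem1, Fst, Fstl1 and Bambi lower). Relative to genes of like length the count for P-G3 on day 3 was 1 of 3 (Fst). The count for P-G3 on day 6 was 1 of 2 (Fstl1) with TMM scaling, with median-of-ratios scaling, with no filter on barcodes and as a mean over cells, where Fst did not reach 20 CPM. The share of all genes past these changed limits was not counted, so whether such counts are unusual cannot be read. When all kept cells were ranked, 2 values for Grem1 in P-G3 cells on day 6 fell below 0. By dividing genes the value was -1.24 (9 against 2 UMIs), with an interval of -3.51 to 2.01 that held 0, and the cause was not tested. By contractile genes it was -0.0030, a bound on 42 against 0 UMIs that shows no change of direction. Under the alternatives of the log2 ratios, 353 values stayed within the counting interval and 157 moved out of it. Depth limits Bmp4 and Fstl3 in every library, Grem1 on day 6 (206 and 56 UMIs) and every ratio against a quintile with 6 or fewer UMIs.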

Other observations

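The barcodes that the filters removed were scaled in the same way. On day 6 untreated, Tgfb1 stood at 21.3 CPM in the removed barcodes (88 UMIs) and 48.0 CPM in the kept cells, and Fstl1 at 5.82 CPM (24 UMIs) and 74.7 CPM. On day 6 with P-G3, Tgfb1 stood at 18.9 CPM in removed and 35.1 CPM in kept barcodes, and Fstl1 at 7.21 CPM (24 UMIs) and 20.5 CPM. Both genes were thus lower in the removed than in the kept barcodes of each day 6 library, with counting intervals of 17.1 to 26.3 CPM for Tgfb1 and 3.73 to 8.66 CPM for Fstl1 in the removed barcodes of the untreated one.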
